A study of Homo sapiens with 11 samples.

Results

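The 52 genes described here act in G2 and mitosis, the stages in which a cell commits to division, condenses its chromosomes, builds a spindle, separates the sister chromatids and splits in 2. They were listed by name and function, but with earlier results of these data known, so the list is not independent of the data. All 52 had a row in both deposited tables, among 33080 genes in all, of which 17626 had at least 1 read. They were sorted by what their proteins do into cyclins with CDK1 and the CDC25 phosphatases (6 genes), Aurora A and Polo-like kinases (3), the chromosomal passenger complex (4), centromere and kinetochore proteins (6), the spindle checkpoint (5), anaphase onset (3), spindle motors (8), spindle assembly factors (7), cytokinesis (3), chromosome structure (2), transcription factors (2) and other cell cycle genes (3).

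RNA was sequenced from 769-P, an established human cell line derived from a clear-cell renal carcinoma. Cells were transfected with RNAiMAX and small interfering RNA at a labelled 20 µM for 48 h. The 4 siSCR libraries received control siRNA and are labelled wild-type, while 3 si1 and 4 si2 libraries received the first or the second siRNA against AKR1A1, an aldo-keto reductase that reduces aldehydes with NADPH. The labels write the genotype of si1 and si2 as AKR1A1-/-, yet the series design calls the cells knockdown derivatives, and every group carries the same transfection. No group of untransfected cells was analysed here, siRNA sequences are not given in the sources used here, and no label says that replicates came from separate cultures, so p-values measure the spread between these libraries, which may be technical.

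The genes of G2 and mitosis are transcribed in a late wave of the cell cycle. In resting cells the DREAM complex, built on the MuvB core, holds them down through a short promoter element, the cell cycle genes homology region (CHR). In cycling cells MYBL2 and FOXM1 join MuvB and turn the same promoters on, with NF-Y bound to CCAAT boxes nearby. CDKN1A, which encodes the kinase inhibitor p21, favours the DREAM form. The level of these transcripts in a bulk sample therefore follows both the share of cells that are in G2 or mitosis and the amount of RNA in each. Fewer such cells and less RNA per cell cannot be told apart here.

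Promoter sequence was shown because it is a feature that the choice of genes did not use. RefSeq windows of 300 bases (GRCh38.p14, 250 before to 50 after an annotated start) existed for 45 of the 52 genes. The CHR core TTTGAA, on either strand (TTCAAA on the other), occurred in 34 of the 45 (75.6%), in 18.2% of all 27305 genes with a window and in 13.4% of the 8429 with a mean normalized count of at least 10. CCAAT or its complement ATTGG occurred in 36 of 45 (80%), against 39.7% of all genes and 44% of the expressed ones. Windows with both motifs numbered 29 of 45 (64.4%), against 8.37% and 7.45%. The weaker CHR spelling TTTAAA, which reads the same on both strands, was in 15 of 45 (33.3%), against 14.5% and 10.4%. A match is a string of letters and not evidence of a bound factor. Stretches just upstream of the start of 5 members are printed 5′ to 3′, with both motifs in capitals on either strand. Each ends where a GENCODE exon begins or, for KIF11 and MKI67, at the RefSeq start. The first 4 are the members with TTTGAA in an exon-free stretch of 50 bases or more in the last 100 before the start, and CENPF was added as the kinetochore gene of highest level.
CDC20: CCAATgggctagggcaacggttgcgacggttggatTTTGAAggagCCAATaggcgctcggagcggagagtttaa
KIF4A: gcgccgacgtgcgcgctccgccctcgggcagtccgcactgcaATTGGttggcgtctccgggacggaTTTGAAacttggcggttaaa
KIF11: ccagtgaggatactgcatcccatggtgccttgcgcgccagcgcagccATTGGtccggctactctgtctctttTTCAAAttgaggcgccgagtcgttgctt
MKI67: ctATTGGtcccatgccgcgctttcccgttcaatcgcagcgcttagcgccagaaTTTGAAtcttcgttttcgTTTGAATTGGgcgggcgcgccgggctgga
CENPF: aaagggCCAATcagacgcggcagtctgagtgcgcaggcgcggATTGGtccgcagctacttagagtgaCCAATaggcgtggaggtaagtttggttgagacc

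The stretch of CDC20 lies at chr1:43358881-43358954 on the plus strand and that of KIF4A at chrX:70290004-70290089 on the plus strand. KIF11 is read from chr10:92593030-92593129 (plus), MKI67 from chr10:128126424-128126523 (minus) and CENPF from chr1:214603095-214603194 (plus). The CDC20 stretch holds TTTGAA 65 bases before the start and CCAAT at 100 and 55 bases. KIF4A and KIF11 share a layout, with ATTGG at 58 and 53 bases and the CHR core closer to the start, at 34 and 28 bases. In MKI67 the 2 copies of TTTGAA lie 47 and 29 bases before the start, and the second shares its last letter with an ATTGG. CENPF has 3 CCAAT boxes in the stretch and no TTTGAA there, though 1 match lies 40 bases after the start. Across members, 21 of 45 had TTTGAA in the last 100 bases before a start. No share over all genes was counted for this shorter stretch, and some members have several annotated starts, so the count cannot be called high or low. DEPDC1 and PRR11, the members with the largest differences between groups, have it 27 and 11 bases before the start.

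AKR1A1, the targeted gene, was low in every library of both siRNAs. Its normalized counts were 390, 256, 200 and 242 in siSCR 1 to 4, then 81.7, 23.6 and 45.1 in si1 and 56.6, 32.1, 48.3 and 46.1 in si2. Neither siRNA group overlapped the controls. By limma, si1 differed from siSCR by -2.54 on the log2 scale (SE 0.42, adjusted p = 0.0357) and si2 by -2.53 (SE 0.24, adjusted p = 0.00218). With the replicate number as a block the si1 call was lost, at adjusted p = 0.154. Without siSCR 1 the differences were -2.36 (adjusted p = 0.021) and -2.34 (adjusted p = 0.00089).

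Library siSCR 1 stands apart from the other controls, and the counts of genes called against siSCR are given with and without it. Reads on genes ranged from 2108546 to 5939514 per library, and the 52 genes held 5357 to 30649 of them. Mitochondrially encoded genes took 12.1% of reads in siSCR 1 against 3.46 to 4.46% in siSCR 2 to 4, 11.1, 6.57 and 7.82% in si1 1 to 3, and 4.59 to 5.12% in si2. Library si1 2 had 11609 genes detected when all libraries were thinned to the same depth, against 13080 to 13617 in the others. Of the cell identity lists, all 6 endothelial markers were at 0 in every library, the fibroblast list (7) summed to 12.3 to 62.8 normalized counts and the leukocyte list (7) to 33.1 to 114. The renal list (8) summed to 9906 to 13818, led by VIM and PAX8, with CA9 at 0 everywhere.

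The share of reads on the 52 genes gives the pattern in brief. It was 0.296% in siSCR 1 and 1.05, 1.06 and 1.03% in siSCR 2 to 4. It was 0.138, 0.333 and 0.357% in si1 1 to 3, and 0.492, 0.485, 0.452 and 0.471% in si2 1 to 4. So siSCR 2 to 4 were highest, si2 formed a tight group at an intermediate level, and siSCR 1 sat among the si1 libraries below every si2 library. The mitochondrial share ran roughly the other way, high in siSCR 1 and si1 and low in siSCR 2 to 4, and its part in the difference was examined only as a covariate, given with each comparison.

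**Figure D1:**
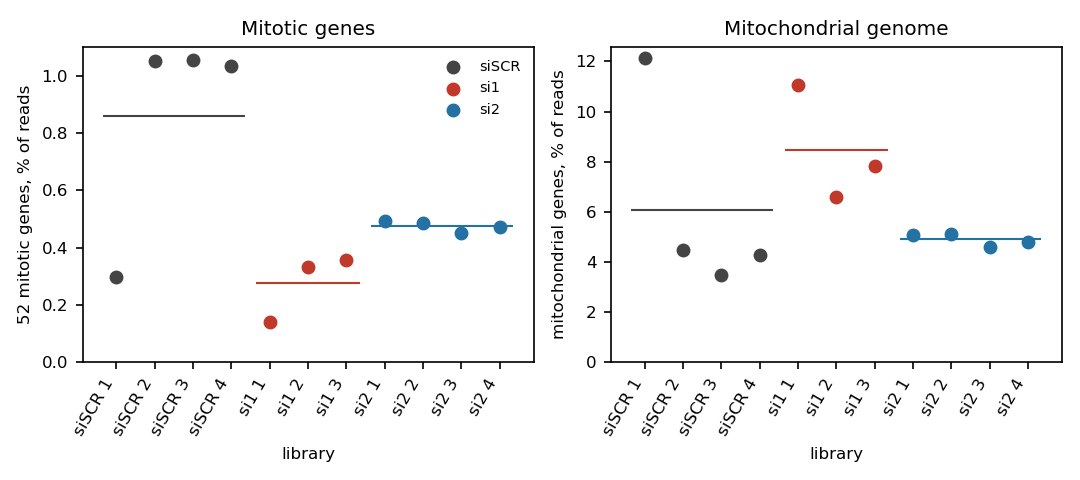
Percent of reads on the 52 mitotic genes (left) and on mitochondrially encoded genes (right) in each of 11 libraries; points are libraries and horizontal lines are group means. In siSCR 1 the mitotic share was 0.296%, inside the si1 range of 0.138 to 0.357%, and its mitochondrial share was 12.1%, the highest plotted.

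Gene by gene the order was the same. siSCR 1 was below each of the other 3 controls in 52 of 52 members, which holds for 36.2% of the 10281 genes with a mean normalized count of at least 10. The median member was 3.44-fold lower in siSCR 1 than in siSCR 2 to 4 (log2 -1.78), from BUB3 at -0.69 to PLK4 at -3.21, while the median over all those genes was 0.01. By role the median ran from -1.41 for cytokinesis to -2.35 for Aurora A and Polo-like kinases. siSCR 1 lay within the si1 range for 45 members, above every si1 library for 6 (BUB3, KIF15, KIF18A, ECT2, DEPDC1 and PRR11) and below every si1 library for 1 (PLK4). It lay below every si2 library for 46 members and within their range for 6. No share over all genes was counted for these positions relative to si1 and si2, so they cannot be read as particular to the members.

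Libraries siSCR 2 to 4 were all above every si1 library for 50 members, against 21.1% of genes tested. They were above every si2 library for 51, against 14.7%. si1 1 was the lowest of the 11 libraries for 49 members, against 11.5% of genes. The median coefficient of variation over members was 44.1% in siSCR, 8.33% in siSCR 2 to 4, 52.6% in si1 and 15.5% in si2. The spread within siSCR and si1 was thus larger than that within si2 or among siSCR 2 to 4. Since siSCR 1 was the lowest control for every member, leaving it out lowers every member's difference from siSCR. Member calls made without it rest on dropping a library that was low in these same genes. They are a description and no separate support.

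**Figure D2:**
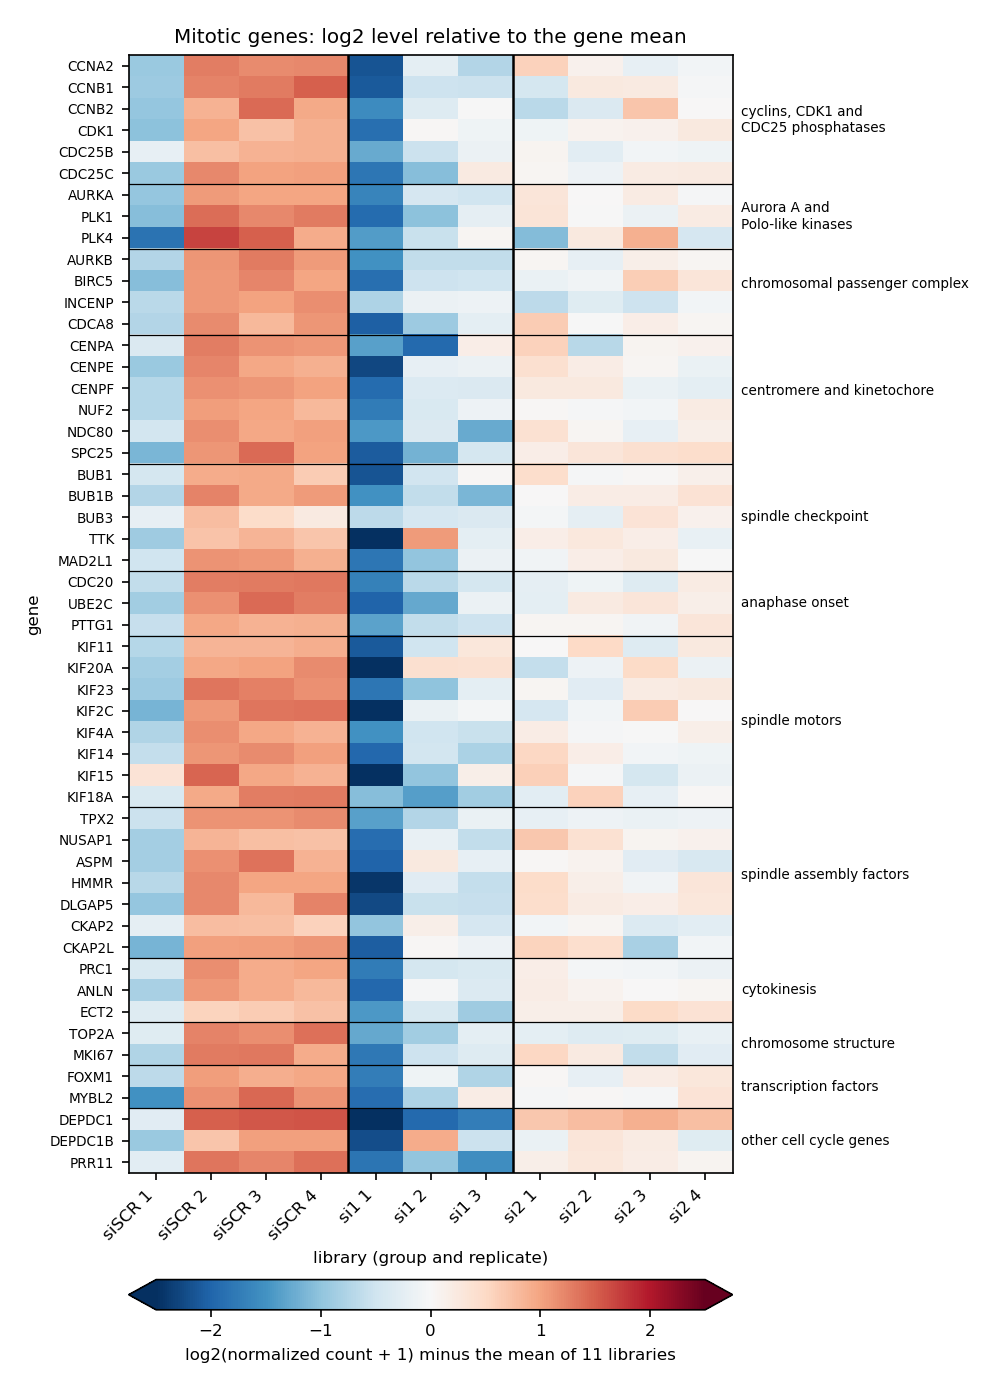
Log2(normalized count + 1) of each of the 52 genes (rows, by role) in 11 libraries (columns), minus that gene's mean over the libraries; red is above the mean and blue below. Columns siSCR 2 to 4 are red for all members, si1 1 is the lowest column for 49 of 52, and siSCR 1 lies within the si1 range for 45.

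Against all 4 controls, the first siRNA left 2 of the 52 genes lower by the test and none higher (limma, Benjamini-Hochberg adjusted p under 0.05). The 2 were PRR11 and DEPDC1, which passed the filter on low values only through siSCR. Of all genes tested, 0.932% were called lower and 0.789% higher. All 52 members had a negative log2 difference, with a median of -1.50 (2.82-fold lower) against -0.03 over all genes tested. An unadjusted p under 0.05 was reached by 37 members, against 12.4% of genes on the lower side. The groups did not overlap for 6 of 52 members, a share close to the 10.9% of all genes tested. All 52 passed the filter on low values, and 44 had a normalized count of at least 10 in every library of the comparison.

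Leaving out siSCR 1 moved that count from 2 to 39 of 52, against 6.52% of genes called lower, and the median to -1.98. The groups then did not overlap for 50 members, against 21.1%. The mitochondrial share of si1 (6.57 to 11.1%) did not overlap that of siSCR 2 to 4 (3.46 to 4.46%). In the comparison without siSCR 1, the siRNA and that share thus cannot be told apart. Leaving out any 1 of the other 6 libraries gave 0 members called. Those fits called only 0 to 4 genes in all, so this is no result about the members. With the replicate number as a block, 0 members were called (0% of all genes), DEPDC1 and PRR11 each at adjusted p = 0.154. A fit that included the mitochondrial share called 7 members lower, against 1.17% of genes, with a median of -0.92. The authors' deposited table listed 28 members lower and 0 higher at adjusted p under 0.05, where it listed 3.4% of its genes lower.

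Against the same 4 controls, the second siRNA left 0 of the 52 genes past the limma test in either direction, where 1.19% of all genes tested were called lower and 1.93% higher. All 52 again had a negative difference, with a median of -0.56 (1.47-fold lower) against -0.01 over all genes tested. That median was -0.37 without siSCR 3 and also without siSCR 2. Among the members 8 reached an unadjusted p under 0.05, against 9.22% of genes on the lower side. With voom on the recovered reads 1 member was called (1.71% of genes), and with limma-trend 1 (1.72%). No member had groups that did not overlap, against 5.5% of genes. Values ran from TOP2A at -1.13 (SE 0.33, adjusted p = 0.0989) to NUSAP1 at -0.06 (SE 0.36, adjusted p = 0.951).

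Without siSCR 1, 47 of 52 members were called lower in si2, against 6.68% of genes, with a median of -0.96. The groups then did not overlap for 51 members, against 14.7%. Fitting the mitochondrial share beside the group, on all 4 controls, called 43 members lower, against 5.81% of genes, with a median of -0.79. That share was 12.1% in siSCR 1 and 3.46 to 5.12% in all other libraries of this comparison. The fit therefore mostly sets siSCR 1 apart and is not separate from leaving that library out. The mitochondrial share of si2 did not overlap that of siSCR 2 to 4, so in the comparison without siSCR 1 the siRNA and that share cannot be told apart. The authors' deposited table listed 5 members lower for si2 (INCENP, CDC20, TPX2, TOP2A and PRR11) and 0 higher, where it listed 1.42% of its genes lower. Both siRNAs were compared with the same control libraries, so the 2 sets of differences are not independent of each other.

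**Figure D3:**
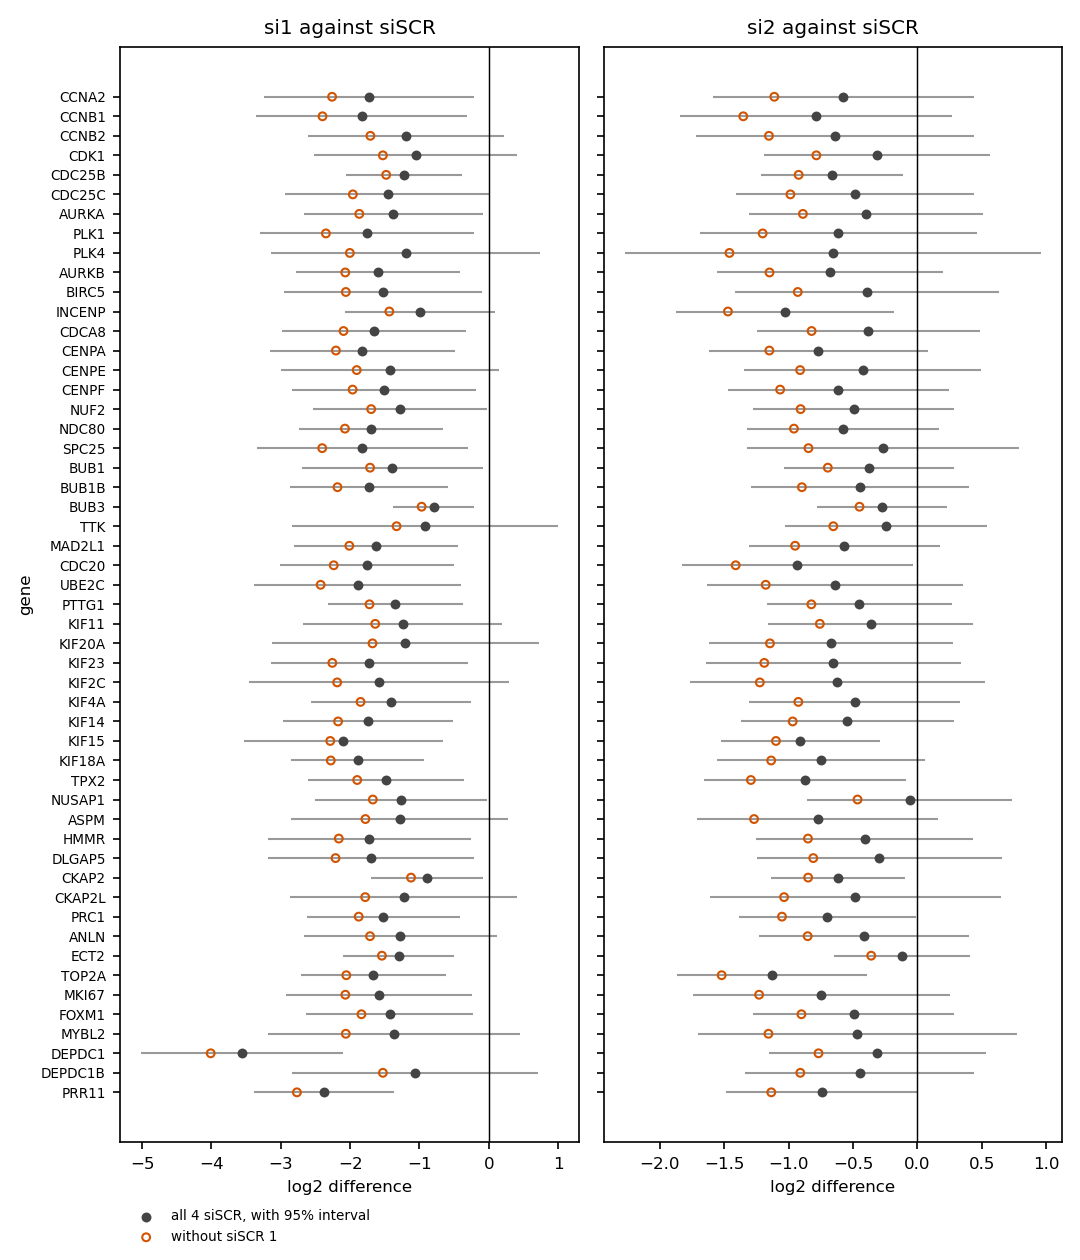
Log2 difference from siSCR for each of the 52 genes, for si1 (left) and si2 (right); filled points with 95% limma intervals use all 4 controls and open points leave out siSCR 1. All filled points are below 0. Leaving out siSCR 1 moves every point further down, the median from -1.50 to -1.98 for si1 and from -0.56 to -0.96 for si2. That direction was fixed in advance, since siSCR 1 was the lowest control for all 52 genes.

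The 2 siRNAs can be compared directly with no control library involved. By that test 6 of the 52 genes were higher with the second siRNA than with the first and none was lower, where 3.71% of all genes tested were called higher and 3.02% lower. They were PRR11, SPC25, BUB1B, ECT2, KIF18A and DEPDC1, which passed the filter on low values only through si2. The difference was positive for 51 members, with INCENP at -0.04, and the median was 0.95 (1.93-fold) against 0.03 over all genes tested, or 0.48 when si1 1 was left out. The groups did not overlap for 27 members, against 13.4%. The 51 members other than PLK4 passed the filter, 44 of them with a count of at least 10 in every library of the 2 groups.

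The mitochondrial share did not overlap between si1 (6.57 to 11.1%) and si2 (4.59 to 5.12%). With it in the fit 0 members were called, against 1.19% of genes, and the median changed sign, to -0.12. Without si1 1, the library lowest for most members, 3 were called, against 2.82% of genes. Without si1 2 there were 9, where 803 genes were called in either direction. Without any 1 si2 library there were 2 or 3, where 120 to 398 genes were called.

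The cyclins, CDK1 and the CDC25 phosphatases form the switch that starts mitosis, in which CDC25 removes the inhibitory phosphates from CDK1 bound to cyclin B. None of the 6 passed the test against all 4 controls for either siRNA. CCNB1, cyclin B1, had normalized counts of 155 in siSCR 1 and 690, 722 and 827 in siSCR 2 to 4, of 67.6, 204 and 200 in si1, and of 214, 343, 342 and 284 in si2. Its log2 difference was -1.83 (SE 0.66, adjusted p = 0.152) for si1 and -0.79 (SE 0.47, adjusted p = 0.396) for si2. siSCR 1 fell inside the si1 values, and without it the differences were -2.40 and -1.35 (adjusted p = 0.021 and 0.00407). CDC25B counted 143 in siSCR 1, 277, 301 and 305 in the other controls, 68.5, 112 and 149 in si1 and 173, 137, 156 and 153 in si2. It was the member of the group with the smallest gap between siSCR 1 and the other controls, -1.04. Across the 6 the si1 difference ran from CCNB1 to CDK1, the kinase itself, at -1.05, with a median of -1.34. For si2 the same 2 genes were the extremes, with CDK1 at -0.31, and the median was -0.61. Without siSCR 1, 5 of 6 were called lower for si1 and 6 of 6 for si2.

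Aurora A and the Polo-like kinases mature the centrosomes and drive entry into mitosis, and PLK4 starts centriole duplication. PLK1 had 188 normalized counts in siSCR 1 and 1032, 903 and 965 in siSCR 2 to 4, so the first control was about as low as the si1 libraries, at 103, 193 and 338. In si2 PLK1 was at 490, 388, 354 and 457, between the others. Its difference was -1.76 (SE 0.67, adjusted p = 0.167) for si1 and -0.61 (SE 0.48, adjusted p = 0.526) for si2. AURKA, the gene of Aurora A, counted 173 and then 703, 671 and 669 in siSCR, 106, 253 and 239 in si1 and 418, 340, 386 and 330 in si2. All 4 si2 libraries exceeded all 3 si1 libraries for both genes, though the tests of that difference did not pass (adjusted p = 0.0971 for AURKA and 0.0997 for PLK1). PLK4 was the member of lowest level per length, at 2.62 normalized counts per kb of exon, and its 1.68 counts in siSCR 1 came from 2 reads. Its differences, -1.20 for si1 (SE 0.84, adjusted p = 0.404) and -0.66 for si2, were the highest and the lowest of the 3 genes, with AURKA at -1.37 and -0.40. When siSCR 1 was left out, PLK1 was at -2.35 and -1.20 (adjusted p = 0.0197 and 0.00316) and AURKA at -1.87 and -0.89 (adjusted p = 0.0215 and 0.00572), and 3 of the 3 genes were called lower for si1 and 2 for si2. Of the exon bases of PLK1, 11.6% are shared with another annotated gene, and no source used here says whether the counting kept strand.

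The chromosomal passenger complex corrects faulty attachments of chromosomes to the spindle, with AURKB as its kinase, INCENP as the scaffold and BIRC5 (survivin) and CDCA8 (borealin) placing it at centromeres. AURKB counted 204 in siSCR 1, 733, 831 and 707 in siSCR 2 to 4, 119, 221 and 219 in si1 and 348, 292, 375 and 349 in si2. The 3 levels did not overlap once siSCR 1 was set aside. The difference was -1.60 (SE 0.51, adjusted p = 0.123) for si1 and -0.68 (SE 0.39, adjusted p = 0.38) for si2, and -2.07 and -1.15 without siSCR 1 (adjusted p = 0.0121 and 0.00279). BIRC5 gave 165, 734, 806 and 683 in siSCR, 93.1, 241 and 243 in si1 and 309, 324, 530 and 425 in si2. INCENP was the only member whose si2 minus si1 difference was negative. It counted 48.7, 169, 160 and 176 in siSCR, 45.7, 70.8 and 72.1 in si1 and 49.5, 63.4, 54.6 and 75.2 in si2, and its si2 minus si1 difference was -0.04 (SE 0.24, adjusted p = 0.937). CDCA8 was the lowest of the 4 for si1, at -1.65 (SE 0.57, adjusted p = 0.142), and the highest for si2, at -0.38, while INCENP was at the other end in each, at -0.99 and -1.03. None of the 4 passed against all 4 controls, and 4 of 4 were called lower without siSCR 1 for each siRNA.

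Kinetochore genes encode the plates on which spindle fibres take hold. CENPA is the histone variant that marks centromeres, CENPE and CENPF bind outer kinetochores, and NDC80, NUF2 and SPC25 belong to the complex that grips microtubules. CENPF had the highest level per length of the 6, 139 normalized counts per kb of exon. It had 843 normalized counts in siSCR 1, 3052, 2969 and 2790 in siSCR 2 to 4, 364, 1084 and 1074 in si1 and 1631, 1635, 1238 and 1166 in si2. Its difference was -1.51 (SE 0.57, adjusted p = 0.166) for si1 and -0.62 (SE 0.39, adjusted p = 0.414) for si2. NUF2 counted 99.1, 334, 322 and 286 in siSCR, 47.4, 125 and 149 in si1 and 166, 160, 155 and 187 in si2. In both genes siSCR 1 lay within the si1 range and every si2 library lay above it.

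SPC25 (chr2:168834132-168913371, minus strand) was higher with the second siRNA. It counted 22.7, 111, 139 and 104 in siSCR, 11.4, 22.2 and 37.6 in si1 and 57.5, 63.4, 68.3 and 70.0 in si2. The lowest si2 library was above the highest si1 library, and si2 minus si1 was 1.56 (SE 0.35, adjusted p = 0.0373). Against siSCR its differences were -1.82 (adjusted p = 0.153) and -0.27 (adjusted p = 0.81). Over the 6 genes the si1 median was -1.61, with SPC25 lowest and NUF2 highest at -1.28. The si2 median was -0.54, with CENPA lowest at -0.77 and SPC25 highest, and without siSCR 1 5 and 6 of them were called lower. CENPA varied most within si1, at 8.78, 5.55 and 27.0, which were 10, 4 and 18 reads.

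The spindle checkpoint holds cells before anaphase until every kinetochore is attached, through the kinases TTK and BUB1 and the CDC20 inhibitors MAD2L1, BUB1B and BUB3. BUB1B (chr15:40161023-40221136, plus strand) counted 64.6, 256, 209 and 225 in siSCR, 36.9, 69.4 and 48.1 in si1 and 109, 122, 123 and 139 in si2. It was higher in si2 than in si1 by 1.28 (SE 0.24, adjusted p = 0.022). Its differences from siSCR were -1.73 (SE 0.49, adjusted p = 0.102) and -0.44 (SE 0.38, adjusted p = 0.565). A readthrough transcript, BUB1B-PAK6, covers 10.2% of its exon bases. BUB3 had the smallest si1 difference of all members. It counted 309, 610, 489 and 416 in siSCR, 226, 264 and 277 in si1 and 342, 302, 448 and 382 in si2, with a si1 difference of -0.80 (SE 0.25, adjusted p = 0.123). TTK was the 1 member highest in a si1 library, at 121 normalized counts in si1 2 against 8.78 and 48.1 in si1 1 and si1 3, and its si1 difference was -0.92 (SE 0.83). For si2 the 5 genes ran from MAD2L1 at -0.57 to TTK at -0.24. Without siSCR 1, 3 of the 5 were called lower for si1 and 4 for si2.

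At anaphase onset CDC20 turns on the anaphase-promoting complex, UBE2C charges it with ubiquitin, and securin, the product of PTTG1, is destroyed. These transcripts were among the most abundant per length, with PTTG1 at 410 and CDC20 at 251 normalized counts per kb of exon. CDC20 counted 273 in siSCR 1 and 1013, 1033 and 1049 in siSCR 2 to 4 (mean 1032, SD 18.2, n = 3). It counted 129, 261 and 308 in si1 and 356, 388, 336 and 482 in si2. Its difference was -1.76 (SE 0.54, adjusted p = 0.116) for si1 and -0.93 (SE 0.40, adjusted p = 0.238) for si2, and without siSCR 1 -2.24 and -1.41 (adjusted p = 0.0145 and 0.00183). PTTG1 counted 493, 1445, 1346 and 1362 in siSCR, 293, 484 and 518 in si1 and 769, 767, 695 and 908 in si2. UBE2C had the lowest si1 value of the 3, -1.89 (SE 0.64, adjusted p = 0.138), and PTTG1 the highest of the 3 for both siRNAs, -1.35 and -0.45. All 3 genes were called lower without siSCR 1 for each siRNA, and the near copy PTTG2 had no read in any library.

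Spindle motors slide and shorten microtubules. KIF11 pushes the poles apart, KIF4A and KIF15 act on chromosomes and spindle fibres, KIF18A damps chromosome oscillations, and KIF20A, KIF23 and KIF14 work at the midzone. KIF4A counted 103, 391, 343 and 318 in siSCR, 60.6, 124 and 119 in si1 and 197, 172, 172 and 194 in si2, for differences of -1.41 (SE 0.50, adjusted p = 0.147) and -0.49 (SE 0.37, adjusted p = 0.507). KIF14 counted 85.6, 282, 296 and 265 in siSCR, 32.5, 94.4 and 75.1 in si1 and 187, 147, 125 and 121 in si2. Both had siSCR 1 inside the si1 range and si2 above si1. KIF4B, the intronless copy of KIF4A, had at most 3.06 normalized counts.

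KIF18A (chr11:28020620-28108308, minus strand) was the motor higher in si2 than in si1, by 1.14 (SE 0.25, adjusted p = 0.0356). It counted 26.0, 66.2, 83.7 and 85.5 in siSCR, 15.8, 12.5 and 18.0 in si1 and 28.3, 51.4, 29.4 and 34.7 in si2, and here siSCR 1 was above all 3 si1 libraries. Its si1 difference, -1.89 (SE 0.42, adjusted p = 0.0609), was the member closest to the threshold among those that missed it. KIF15 had the lowest value of the 8 against siSCR for both siRNAs, -2.10 (adjusted p = 0.109) and -0.91 (adjusted p = 0.109). The highest were KIF20A for si1, at -1.20 (SE 0.83, adjusted p = 0.397), and KIF11 for si2, at -0.36. The si1 median of the motors was -1.65 and the si2 median -0.64. Without siSCR 1, 4 of 8 were called lower for si1 and 8 of 8 for si2.

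Spindle assembly factors gather and bundle microtubules, with TPX2 activating Aurora A and ASPM focusing the poles. TPX2 had 374 normalized counts in siSCR 1, 1199, 1190 and 1234 in siSCR 2 to 4, 212, 329 and 485 in si1 and 477, 501, 490 and 500 in si2. The si2 libraries lay close together, and the highest si1 library overlapped them. Its differences were -1.48 (SE 0.49, adjusted p = 0.129) and -0.87 (SE 0.35, adjusted p = 0.209). ASPM counted 268, 1072, 1241 and 881 in siSCR, 120, 569 and 419 in si1 and 495, 513, 395 and 363 in si2, so that 2 of 3 si1 libraries were at the si2 level. Its si2 minus si1 difference, 0.51 (SE 0.48), became -0.16 without si1 1. HMMR was lowest of the 7 for si1 at -1.72 (adjusted p = 0.159) and CKAP2 highest at -0.89 (adjusted p = 0.176). NUSAP1 shares 62.2% of its exon bases with another annotated gene, so its counts are uncertain. The si1 median was -1.29 and the si2 median -0.48, and without siSCR 1 4 and 5 of the 7 were called lower.

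In cytokinesis PRC1 bundles the midzone, ECT2 activates the small GTPase RhoA and ANLN (anillin) ties the contractile ring together. PRC1 counted 242, 709, 599 and 623 in siSCR, 93.1, 233 and 243 in si1 and 354, 304, 299 and 284 in si2, with differences of -1.52 (SE 0.48, adjusted p = 0.118) and -0.70 (SE 0.31, adjusted p = 0.247). It shares 57.6% of its exon bases with another annotated gene. ANLN counted 139, 520, 468 and 430 in siSCR, 62.3, 241 and 194 in si1 and 279, 262, 249 and 253 in si2. For both genes every si2 library was above every si1 library. ANLN was the highest of the 3 for si1, at -1.27. ECT2 (chr3:172750682-172821474, plus strand) counted 181, 333, 352 and 380 in siSCR, 83.4, 175 and 122 in si1 and 251, 252, 315 and 291 in si2. It was higher in si2 than in si1 by 1.18 (SE 0.26, adjusted p = 0.0359), and its si2 values came close to siSCR, at -0.12 (SE 0.24, adjusted p = 0.835), with a 95% interval of -0.65 to 0.41. Without siSCR 1, 2 of the 3 were called lower for each siRNA.

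TOP2A, the topoisomerase that untangles sister chromatids, and MKI67, which coats mitotic chromosomes and gives the Ki-67 proliferation marker, stand for chromosome structure. TOP2A was the member of highest level per length, 539 normalized counts per kb of exon. It counted 2358 in siSCR 1, 6856, 6474 and 7565 in siSCR 2 to 4, 1191, 1596 and 2460 in si1 and 2452, 2319, 2355 and 2567 in si2. Here siSCR 1, the highest si1 library and all si2 libraries met at about the same level. Its si1 difference was -1.67 (SE 0.45, adjusted p = 0.0903), and its si2 difference, -1.13, was the lowest of the 52. Without siSCR 1 they were -2.05 and -1.52 (adjusted p = 0.0123 and 0.00089). MKI67 counted 402, 1676, 1690 and 1292 in siSCR, 194, 472 and 538 in si1 and 972, 786, 440 and 552 in si2, with differences of -1.58 (SE 0.58, adjusted p = 0.157) and -0.75 (SE 0.45, adjusted p = 0.397). Both genes were among those called lower for each siRNA when siSCR 1 was left out.

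FOXM1 and MYBL2, the factors that bind these promoters, are themselves transcribed with them. FOXM1 counted 80.6, 265, 238 and 251 in siSCR, 37.8, 118 and 75.1 in si1 and 130, 111, 145 and 154 in si2. MYBL2 counted 129, 822, 1014 and 817 in siSCR, 99.2, 219 and 424 in si1 and 366, 380, 364 and 474 in si2. For MYBL2 the log2 difference of siSCR 1 from the other controls was -2.76, second only to PLK4. FOXM1 differed from siSCR by -1.43 (SE 0.52, adjusted p = 0.156) and -0.49 (SE 0.35, adjusted p = 0.475), and MYBL2 by -1.37 (SE 0.78, adjusted p = 0.314) and -0.47 (SE 0.56, adjusted p = 0.702). Both were called lower without siSCR 1 for each siRNA. Of the exon bases of FOXM1, 15.9% are shared with ITFG2.

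**Figure D4:**
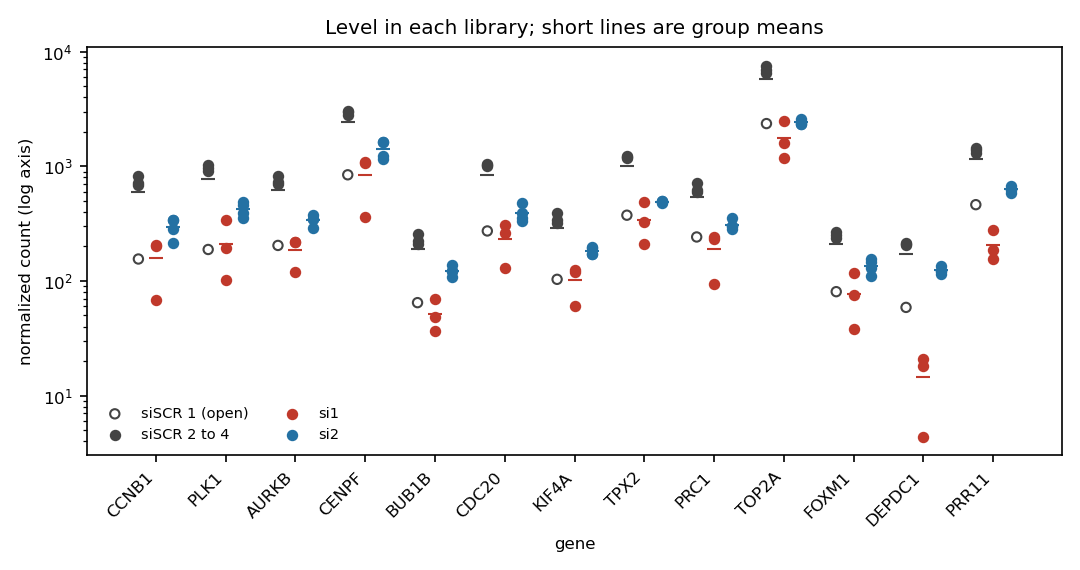
Normalized counts (log axis) of 13 of the 52 genes in each library, by group; the open circle is siSCR 1 and short lines are group means over all libraries of a group. siSCR 2 to 4 are the top points of every gene, si2 lies below them, and siSCR 1 lies within the si1 points for 11 of the 13, the others being DEPDC1 and PRR11.

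DEPDC1 (chr1:68474152-68497221, minus strand), a transcriptional co-regulator with a DEP domain that peaks in mitosis, was the member with the largest difference. It counted 58.8, 204, 212 and 216 in siSCR, 4.39, 18.0 and 21.0 in si1 and 115, 123, 134 and 121 in si2. The si1 values were 5, 13 and 14 reads, and the highest of them was below the lowest control. The controls carried it past the filter on low values against siSCR, and si2 did so between the siRNAs, since si1 1 was under 10. Its calls are therefore a description of low si1 counts. The log2 difference of si1 from siSCR was -3.55 (SE 0.63, adjusted p = 0.0429, 11.8-fold lower, 95% interval -5.01 to -2.10). si2 exceeded si1 by 3.24 (SE 0.45, adjusted p = 0.00967, 9.46-fold), while si2 differed from siSCR by -0.31 (SE 0.38, adjusted p = 0.709). Without siSCR 1 the differences were -4.01 and -0.77 (adjusted p = 0.0111 and 0.00719), and in the fit that included the mitochondrial share the si1 difference was -2.92 (adjusted p = 0.0329) and the gap between the siRNAs 1.63 (adjusted p = 0.0672). The related DEPDC1B counted 10.1, 33.1, 41.9 and 41.8 in siSCR and 3.51, 38.9 and 13.5 in si1, with si1 2 at control level and a si1 difference of -1.07.

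PRR11 (chr17:59155499-59204705, plus strand), a proline-rich protein needed for progress through the late cell cycle, counted 463, 1397, 1302 and 1439 in siSCR. It counted 156, 279 and 188 in si1 and 618, 679, 628 and 585 in si2. Every si1 library lay below every si2 library, with siSCR 1 between them and siSCR 2 to 4 above all. The si1 difference was -2.37 (SE 0.44, adjusted p = 0.046, 5.18-fold lower) and the si2 difference -0.74 (SE 0.33, adjusted p = 0.256), or -2.77 and -1.14 without siSCR 1 (adjusted p = 0.00696 and 0.002). si2 exceeded si1 by 1.63 (SE 0.22, adjusted p = 0.00959), and by 1.06 with the mitochondrial share in the fit (adjusted p = 0.0913). Of DEPDC1, DEPDC1B and PRR11, 2 were called lower for si1 and 3 for si2 when siSCR 1 was left out.

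Members varied together from library to library. Across the 11 libraries the Pearson correlation of a member with the mean of the other 51 had a median of 0.954 and exceeded 0.9 for 41 members. The lowest were CENPA and TTK, each 0.81. With each group centred on its own mean, the median was 0.946, and 48 members exceeded 0.8. All members of a library share its depth and normalization, so this is a description with no test. By its si1 mean, DEPDC1 departed from the common level more than any other member. Relative to the mean of the others, each centred on its own mean, it was lower by 1.96, 1.46 and 1.37 in si1 1 to 3 on the log2 scale. In siSCR it was higher, by 0.45, 0.40, 0.49 and 0.57, and in si2 by 0.60, 0.72, 0.85 and 0.71. Its level in si1 was thus further down than that of the other members in the same 3 libraries. PRR11 departed by 0.02, -0.49 and -1.20 in si1, so in si1 1 its level followed the rest. INCENP departed the other way, with a mean of 0.57 above the others in si1 and 0.46 below them in si2.

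**Figure D5:**
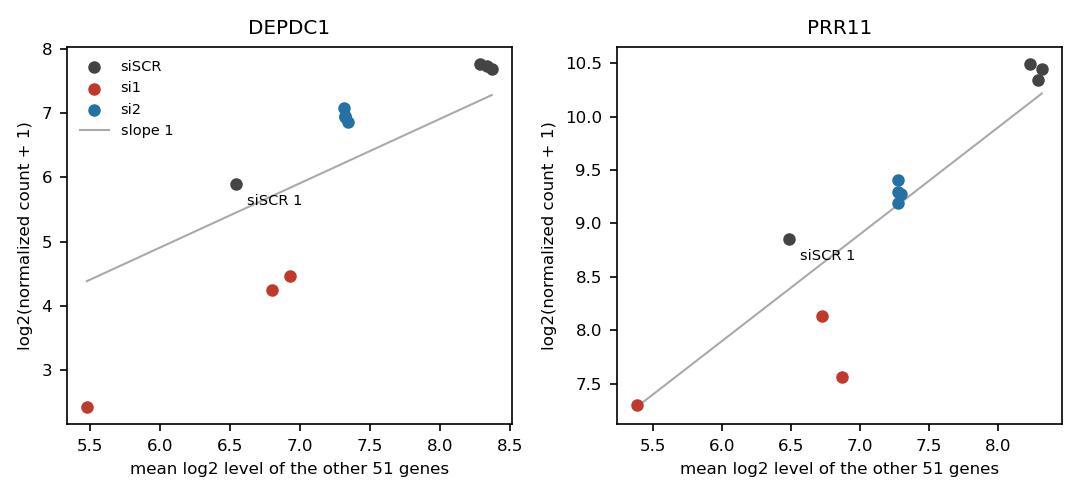
Log2(normalized count + 1) of DEPDC1 (left) and PRR11 (right) against the mean log2 level of the other 51 genes in each library; the grey line has slope 1 through the overall means. The 3 si1 libraries lie 1.37 to 1.96 below the line for DEPDC1, while siSCR 1, at a like level of the other genes, lies 0.45 above it.

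Other genes of the same processes were taken from lists made by function, also with earlier results of these data known. Their counts are to be read against the shares of all genes. Called lower against siSCR were 0.932% (si1) and 1.19% (si2), and 6.52% and 6.68% without siSCR 1. Called higher in si2 than in si1 were 3.71%. Between the siRNAs, genes called fell from 704 to 167 with the mitochondrial share in the fit, and to 6 with the replicate block. These fits are not given for the list genes. The mitochondrial share did not overlap between si1 and si2, so in those calls it and the siRNA cannot be told apart. Of 35 further kinetochore genes, 0 passed against siSCR for either siRNA (medians -1.13 for si1 and -0.24 for si2), and 9 were higher in si2 than in si1 (3.71% of all genes). The 4 largest of those were CENPN (1.65, SE 0.35, adjusted p = 0.0314), CENPL (1.55, SE 0.29, adjusted p = 0.022), CENPI (1.55, SE 0.33, adjusted p = 0.0314) and SKA1 (1.50, SE 0.34, adjusted p = 0.0405), all proteins of the centromere or outer kinetochore. Without siSCR 1, 16 and 17 of the 35 were called lower, against 6.52% and 6.68% of all genes. SPDL1, which had the highest counts of the list, was at -0.89 (SE 0.45, adjusted p = 0.265) and -0.18 (SE 0.36, adjusted p = 0.835), and SKA2 at -0.83 (SE 0.34, adjusted p = 0.193) and 0.00 (SE 0.27, adjusted p = 0.999).

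Of 21 other spindle and cytokinesis genes, 2 were lower in si1: SPAG5 (astrin), at -3.48 (SE 0.61, adjusted p = 0.0419), and the kinesin KIF24, at -1.40 (SE 0.21, adjusted p = 0.0318). SPAG5 counted 36.9, 90.8, 91.6 and 107 in siSCR, 3.51, 2.78 and 18.0 in si1 and 54.0, 61.8, 28.4 and 52.4 in si2 so that, as for DEPDC1, siSCR 1 was above all si1 libraries. si2 exceeded si1 by 2.81 (SE 0.55, adjusted p = 0.0266). KIF24 counted 11.8, 18.2, 17.0 and 16.3 in siSCR and 4.39, 5.55 and 6.01 in si1. Against siSCR both genes passed the filter on low values only through siSCR, where they were high. Between the siRNAs SPAG5 passed it only through si2. The calls of both genes are therefore a description of low counts and support nothing further. With the replicate block no gene of any list was called in si1. The list median was -1.40 for si1 and -0.52 for si2, where 0 passed, with CEP55, the abscission protein, at -0.47 (SE 0.53, adjusted p = 0.681). Without siSCR 1, 15 of 21 were called lower for each siRNA, against 6.52% and 6.68% of all genes.

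Of 8 condensin subunits, which compact mitotic chromosomes, 0 passed against siSCR (medians -1.07 and -0.49) and SMC2 was higher in si2 than in si1 by 1.39 (SE 0.29, adjusted p = 0.0303). Its partner SMC4 was at -1.02 (SE 0.49, adjusted p = 0.246) and -0.49 (SE 0.31, adjusted p = 0.422). When siSCR 1 was left out, 3 of the 8 were called lower for si1 and 5 for si2. Of 25 other G2/M regulators 0 passed against siSCR (medians -1.14 and -0.43), with the tubulin TUBA1B at -1.13 (SE 0.48, adjusted p = 0.203) and 0.29 (SE 0.40, adjusted p = 0.748). In that list 4 were higher in si2 than in si1: the kinase NEK2 (1.57, SE 0.38, adjusted p = 0.0473), the tubulin TUBB4B (1.18, SE 0.19, adjusted p = 0.0154), stathmin STMN1 (1.12, SE 0.23, adjusted p = 0.0303) and PKMYT1, which inhibits CDK1 (1.00, SE 0.22, adjusted p = 0.0352). Without siSCR 1, 13 and 18 of the 25 were called lower, against 6.52% and 6.68% of all genes. The core of the anaphase-promoting complex had medians of -0.20 and -0.05 over its 15 genes, 14 of them tested and 0 called against siSCR. When siSCR 1 was left out, 1 was called lower for si1 (ANAPC15, at -0.97, adjusted p = 0.0222) and 0 for si2. ANAPC11, its RING subunit, was at -0.02 (SE 0.20) and -0.01 (SE 0.19). Between the siRNAs ANAPC13 was lower in si2 (-0.88, SE 0.21, adjusted p = 0.0457) and ANAPC15 higher (0.74, SE 0.18, adjusted p = 0.0493).

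The list of MuvB, DREAM and cell cycle repressors (15 genes, 13 tested) had 0 calls against siSCR and medians of -0.48 and -0.01, with RBBP4, a histone-binding subunit of MuvB, at -0.55 (SE 0.21, adjusted p = 0.167) and -0.31 (SE 0.19, adjusted p = 0.406). RBL1 (p107) was higher in si2 than in si1, by 1.06 (SE 0.25, adjusted p = 0.0455), and CDKN1A was lower, at -1.21 (SE 0.23, adjusted p = 0.0225). CDKN1A counted 4349 in siSCR 1 and 892, 948 and 853 in siSCR 2 to 4, then 9083, 5710 and 5846 in si1 and 2883, 2505, 3479 and 2815 in si2. Its groups stood in the reverse order of those of the mitotic genes, with siSCR 1 between si2 and si1. Against siSCR its differences were 2.33 (SE 0.58, adjusted p = 0.074) and 1.12 (SE 0.47, adjusted p = 0.221), and without siSCR 1 they were 2.90 (adjusted p = 0.00696) and 1.69 (adjusted p = 0.00089). Of the same list RBL1 (-1.56, adjusted p = 0.0225) and TFDP1 (-0.87, adjusted p = 0.0465) were lower in si1 when siSCR 1 was left out, and RBL2 (-0.58, adjusted p = 0.0395) in si2. With CDKN1A, that made 2 lower and 1 higher for si1, and 1 lower and 1 higher for si2. Whether the CDKN1A level had a part in the level of the mitotic genes was not tested.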

How the data were processed

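RNA-seq of 11 libraries of 769-P cells was deposited as 2 tables, each holding 1 siRNA group and the same 4 controls. Per the labels' protocols, the authors counted reads with HTSeq and normalized them by relative log expression in DESeq2. Per the submitters' processing notes, cutadapt, FastQC, STAR and GRCh38 were also used, with versions not given in the sources used here. Deposited values are log2 of the normalized count + 1, taken from the values themselves, and their steps gave back whole reads within 0.01 of a read in every library. The deposited columns of log2 fold change and adjusted p-value are the authors' own comparisons, and their mean normalized count per gene, a signal value deposited by the authors, was not used.

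The log2 values were fitted with limma 3.58.1 in R 4.3.3, with no trend, 2 groups at a time. A gene entered a fit if the number of libraries with a normalized count of 10 or more reached the size of the smaller group. Calls are at Benjamini-Hochberg adjusted p under 0.05, over every gene in the fit. A fold is on the log2(normalized count + 1) scale, with a pseudocount of 1, which understates the change of low genes. The pairing of replicate numbers was checked by the correlation, over 10281 genes, of same-numbered libraries' deviations from their group means. It was 0.407, 0.106 and 0.141 for the 3 pairs of si1 with siSCR. Unlike-numbered libraries reached 0.126 (si1 2 with siSCR 3) and 0.132 (si1 3 with siSCR 4), so only pair 1 stood out. Pairing is thus uncertain, and the fit with the number as a block is an alternative, given beside the si1 results whose call it changed. Alternatives were other pseudocounts and filters, other normalization, limma-trend, voom on the recovered reads, all 11 libraries in 1 fit, the mitochondrial share as a covariate, the block, and leaving out each library. Intervals for 1 library's share would cover counting error only and are not printed. The fitting script was checked on simulated data.

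Genes named with values are AKR1A1, the 2 members of each role with the highest mean normalized count, every member called in any comparison, the lowest and highest of a role against siSCR, and from other lists the called genes (up to 4, by size) or the 2 of highest level. INCENP, TTK, CENPA, PLK4 and DEPDC1B were also given values after these had been seen. The members, the lists and the tests were chosen with earlier results of these data known. KIFC1 and TUBB, listed among other genes, were not matched. Promoter windows are from RefSeq and exon overlaps from GENCODE v29.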

Additional observations from a re-analysis of the deposited data

Results flagged for a closer look

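In the siSCR group, 18 of the 52 genes had siSCR 1 so far below the other 3 libraries that its gap took up more than 0.829 of the group's range (Dixon's 95% critical value for 4 samples), which chance gives for about 1 in 20 groups. The normalized counts in siSCR 1 were 44.5 for CCNA2, 18.5 for CDC25C, 173 for AURKA, 188 for PLK1, 48.7 for INCENP and 843 for CENPF. They were 30.2 for TTK, 273 for CDC20, 493 for PTTG1, 61.3 for KIF11, 38.6 for KIF23 and 85.6 for KIF14. They were 374 for TPX2, 193 for NUSAP1, 38.6 for CKAP2L, 80.6 for FOXM1, 58.8 for DEPDC1 and 463 for PRR11. All 18 are of 1 library, so they are not 18 separate signs. siSCR 1 was below the other 3 controls for 36.2% of genes with a mean normalized count of at least 10. The share of all genes with siSCR 1 so far out is not given, so the 18 cannot be read as particular to these members. Among the groups of 4 libraries, the only other such value was MYBL2 in si2 4, a high value of 474 where si2 1 to 3 had 364 to 380. The critical value for 4 samples does not cover si1, which has 3 libraries. There si1 1 was below the other 2 for 50 members, as in CENPF at 364 against 1084 and 1074. The share of all genes for which this holds is not given.

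The 2 siRNAs differed from each other by the test of that difference in 6 members, all higher in si2: SPC25 by 1.56, BUB1B by 1.28, KIF18A by 1.14, ECT2 by 1.18, DEPDC1 by 3.24 and PRR11 by 1.63 on the log2 scale. In each, all 4 si2 libraries were above all 3 si1 libraries, and DEPDC1 passed the filter on low values only through si2. The mitochondrial share of reads differed between the same libraries, and with it as a covariate none of the 6 was called. The differences were then 0.61 for SPC25 (limma adjusted p = 0.44), 0.62 for BUB1B (0.232), 1.35 for KIF18A (0.121), 0.36 for ECT2 (0.448), 1.63 for DEPDC1 (0.0672) and 1.06 for PRR11 (0.0913), all still higher in si2.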

How the results depend on the processing

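All 3 median differences of the members kept their sign under every alternative except the mitochondrial covariate in si2 against si1. For si1 against siSCR, 181 genes and 2 members were called. The numbers of genes were 152 with a pseudocount of 0.5, 414 with a pseudocount of 5, 5 with no filter and 567 with a minimum count of 50. They were 712 with limma-trend, 1141 with all 11 libraries in 1 fit and 582 with voom. With the mitochondrial covariate there were 238, and with the replicate block 0. Members called were 1 with a pseudocount of 0.5, 0 with no filter, 6 with a minimum of 50, 13 with limma-trend, 18 with all 11 libraries, 7 with the mitochondrial covariate, 0 with the replicate block and 4 with voom. Leaving out 1 library gave 0 to 1399 genes and 0 to 39 members, the highest without siSCR 1. Members whose groups did not overlap were 50 without siSCR 1, 11 without si1 2 and 6 with all libraries, both alternatives chosen after seeing the data. Over all genes the shares were 21.1% without siSCR 1 and 10.9% with all libraries, and none is given without si1 2.

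For si2 against siSCR, 320 genes and 0 members were called. The numbers of genes were 108 with no filter, 482 with limma-trend, 1343 with the mitochondrial covariate, 175 with the replicate block and 463 with voom. Members called were 1 with limma-trend, 43 with the mitochondrial covariate and 1 with voom. Leaving out 1 library gave 88 to 1496 genes and 0 to 47 members. Groups did not overlap for 51 members without siSCR 1, against 14.7% of genes. SPC25 ranged from -0.85 to 0.0069, the highest without siSCR 3.

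For si2 against si1, 704 genes and 6 members were called. The numbers of genes were 230 with no filter, 934 with a minimum of 50, 1064 with limma-trend and 790 with all 11 libraries. They were 167 with the mitochondrial covariate, 6 with the replicate block and 1172 with voom. Members called were 2 with no filter, 17 with a minimum of 50, 17 with limma-trend, 3 with all 11 libraries, 0 with the mitochondrial covariate, 0 with the replicate block and 25 with voom. Leaving out 1 library gave 120 to 803 genes and 2 to 9 members. With the mitochondrial covariate the median was -0.12 and the sign turned for CCNB1 (-0.32), CDC25B (-0.13), AURKA (-0.057), BIRC5 (-0.12), CENPF (-0.38), NUF2 (-0.44), CDC20 (-0.082), TPX2 (-0.057), ASPM (-1.24), PRC1 (-0.29), ANLN (-0.70), MKI67 (-0.17), FOXM1 (-0.34) and MYBL2 (-0.27). Leaving out 1 library, ASPM ranged from -0.16, without si1 1, to 0.96. AKR1A1, at 0.01, was at -0.019 with upper-quartile scaling and -0.10 with voom, and from -0.43 to 0.45 with 1 library left out.

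The cause of these changes was not tested. For si2, the correlations of same-numbered libraries were 0.105, -0.035, 0.175 and 0.0925 with siSCR. With si1 they were 0.0994, -0.003 and 0.0487, and the numbers were not taken to pair the si2 libraries. Depth limits the members of lowest level, such as PLK4, with 2 reads in siSCR 1.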
